A study of Mus musculus with 4 samples.

Results

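The 10 genes described here mark the ventral telencephalon and the GABA neurons that are born there, and were chosen by name from the 27293 genes of a bulk RNA-seq table of 4 libraries. They were chosen with their levels in these libraries already known, so their values are a description and carry no test. They are Nkx2-1, Lhx6 and Lhx8 of the medial ganglionic eminence, Dlx1, Dlx2, Dlx5 and Dlx6 of all the eminences, Gsx2, whose level is highest in lateral progenitors, and Gad1 and Gad2, the genes of the enzymes that make GABA. All 10 passed the filter on low counts, which left 16145 genes, and the lowest count of any of them in any library was 143.

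The libraries were made from 2 µg of total RNA each, from telencephalic tissue of C57BL/6 mouse embryos at embryonic day 13 (E13). In 2 of them, labelled cKO, the embryos carried floxed alleles of STING, an adaptor of the innate immune response to cytosolic DNA, together with Nestin-Cre, in which the Nestin promoter drives the recombinase in neural progenitors. The other 2 were labelled WT. The comparison asks what the loss of STING in the developing brain does to gene expression. The labels call the tissue telencephalic, while the study writes of forebrain in a figure legend and of cerebral cortex in its methods, and none of these says how much of the ventral telencephalon was taken. The title of WT 2 carries the letters nes where that of WT 1 carries wt, and their meaning is not given. The labels thus do not settle whether both WT libraries had the same genotype. No label says that the libraries came from separate embryos or litters, so a p-value here measures only the spread between these libraries.

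GABA neurons of the forebrain are not born in the cortex but below it, in the ganglionic eminences, and those meant for the cortex migrate into it tangentially. Nkx2-1 gives the medial eminence its identity and turns on Lhx6 and Lhx8. Interneurons bound for the cortex switch Nkx2-1 off on the way and keep Lhx6, while the Dlx genes stay active in young GABA neurons of every eminence. A piece of embryonic telencephalon can therefore hold these transcripts both from the eminences themselves and from cells on their way into the cortex.

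The libraries held 17209654 to 18533391 counts in all, and 3 counts, the most that a listed 0 still permits, were worth 0.162 to 0.174 CPM (counts per 1000000 counts of the library). The targeted gene, listed under its older symbol Tmem173, was counted 20 and 19 times in the WT libraries and 18 and 22 times in the cKO libraries, a log2 fold change of 0.02 (SE 0.45, adjusted p = 0.9999, edgeR's quasi-likelihood test). Its count thus did not separate the libraries labelled cKO from those labelled WT, and cKO 1, cKO 2, WT 1 and WT 2 stand below for the libraries so labelled. WT 1 stood apart in markers of tissue around the telencephalon. The 5 choroid plexus and cortical hem genes found in the table, 4 of them tested, summed to 43.5 CPM in WT 1 and to 2.75 to 11.6 CPM in the others, and the 5 genes of meninges and mesenchyme to 210.3 CPM in WT 1 and to 29.0 to 57.1 CPM in the others. The genes of the non-ventral lists that met the thresholds of the study (given further on) were Kcne2, Col1a1 and Otx2, each highest in WT 1.

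The sequences just before the start sites are shown for the 4 genes whose windows hold no exon of any annotated gene, because these genes cover a medial, a Dlx and a lateral role and differ in how far 1 library departs from the others. RefSeq (GRCm38.p6) gave a window for 8 of the 10 genes, and 250 bases before the start are printed 5′ to 3′ on the strand of the gene. The window of Nkx2-1 is chr12:56536909-56537158 on the minus strand, inside an intron of the antisense gene Gm26973. The windows of Lhx6, chr2:36105409-36105658, and Dlx2, chr2:71546755-71547004, both on the minus strand, and of Gsx2, chr5:75075351-75075600 on the plus strand, are intergenic. Capitals mark matches to the E-box letters CANNTG, a general form that includes the sites of proneural factors but is not particular to them.
Nkx2-1: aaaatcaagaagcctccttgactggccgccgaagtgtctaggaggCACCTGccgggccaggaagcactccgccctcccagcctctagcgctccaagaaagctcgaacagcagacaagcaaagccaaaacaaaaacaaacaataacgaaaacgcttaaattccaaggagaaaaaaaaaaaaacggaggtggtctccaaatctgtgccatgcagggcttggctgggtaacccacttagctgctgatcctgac
Lhx6: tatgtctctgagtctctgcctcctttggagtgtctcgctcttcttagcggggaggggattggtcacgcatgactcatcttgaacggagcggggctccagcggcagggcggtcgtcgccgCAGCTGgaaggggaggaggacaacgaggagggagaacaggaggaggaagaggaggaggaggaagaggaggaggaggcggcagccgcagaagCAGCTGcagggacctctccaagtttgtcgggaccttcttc
Dlx2: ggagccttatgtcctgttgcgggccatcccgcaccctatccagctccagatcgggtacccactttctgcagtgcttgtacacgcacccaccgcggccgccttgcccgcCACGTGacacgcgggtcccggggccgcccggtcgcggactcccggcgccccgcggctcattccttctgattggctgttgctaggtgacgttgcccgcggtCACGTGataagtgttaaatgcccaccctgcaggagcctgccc
Gsx2: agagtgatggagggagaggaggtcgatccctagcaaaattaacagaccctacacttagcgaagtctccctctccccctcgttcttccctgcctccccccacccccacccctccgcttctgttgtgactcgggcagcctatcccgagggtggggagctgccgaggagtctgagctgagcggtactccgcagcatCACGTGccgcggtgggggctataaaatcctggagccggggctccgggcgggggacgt
The E-box letters, searched on both strands, were found in the windows of 6 of the 8 genes and in 66.2% of all 32851 promoters of the table. The homeodomain letters TAATTA were found in 0 of the 8 windows and in 4.84% of all promoters, and the letters CACTTNA, a form bound by Nkx2-1, in 0 of the 8 and in 10.1%. The Lhx6 matches both read CAGCTG, the Dlx2 and Gsx2 matches CACGTG and the Nkx2-1 match CACCTG. A match is a description of letters and not a site shown to be used.

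Nkx2-1 differed more between the libraries than any other of the 10 genes. This homeobox gene (ENSMUSG00000001496, chr12:56531958-56536908, minus strand) was counted 1407 and 1035 times in the WT libraries, but 262 times in cKO 1 and 1166 times in cKO 2. On the CPM scale these are 81.8, 55.8, 14.4 and 64.4. The low value belonged to cKO 1 alone, and cKO 2 lay between the WT libraries. The mean was 68.8 ± 18.3 CPM in WT and 39.4 ± 35.4 CPM in cKO (SD, n = 2 each), so the log2 fold change of -0.79 (SE 0.56) described neither cKO library. The level in cKO 1 was 3.89-fold below the lowest of the other 3 libraries.

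Lhx8 and Lhx6, LIM homeobox genes downstream of Nkx2-1, were also lowest in cKO 1, by smaller factors. Lhx8 (ENSMUSG00000096225, chr3:154306294-154330659, minus strand), which marks the part of the medial lineage that stays in the basal forebrain and gives cholinergic neurons, reached 25.2 and 15.6 CPM in WT, 7.84 CPM in cKO 1 (its 143 counts being the lowest of any of the 10 genes) and 18.6 CPM in cKO 2. In cKO 1 it lay 2.00-fold below the next library, and its log2 fold change was -0.61 (SE 0.40). Lhx6 (ENSMUSG00000026890, chr2:36081953-36105408, minus strand), which migrating interneurons keep, had 94.2 and 105 CPM in WT, 60.9 CPM in cKO 1 and 102 CPM in cKO 2. It lay 1.55-fold below the next library in cKO 1, and its log2 fold change was -0.28 (SE 0.24). The groups overlapped for all 3 medial genes, because cKO 2 was within the range of the WT libraries for each.

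**Figure D1:**
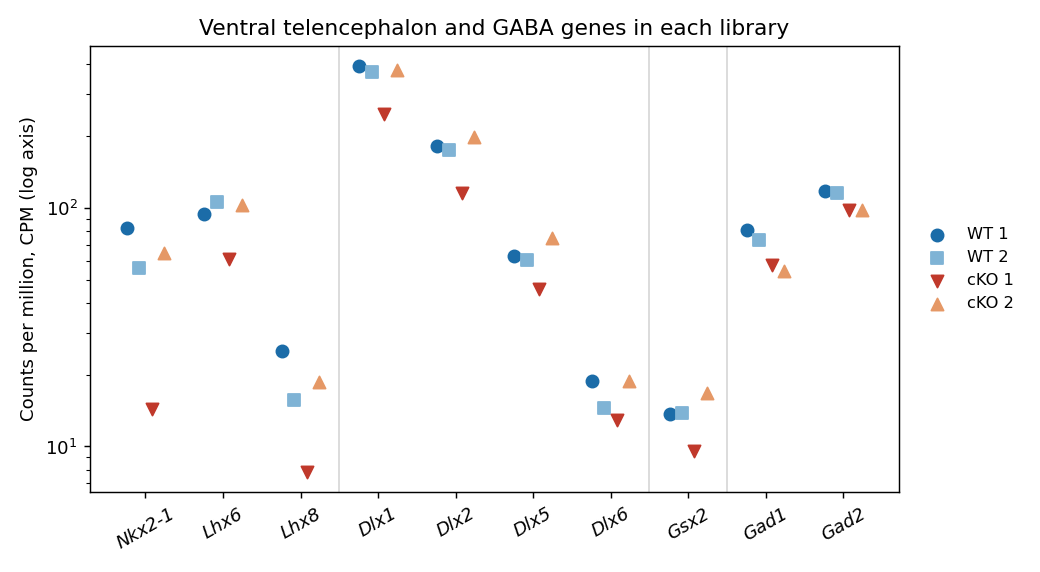
Level of the 10 genes in each library, in CPM on a log axis, with 1 symbol per library and grey lines between the medial, Dlx, lateral and GABA synthesis genes. The triangle pointing down, cKO 1, is the lowest symbol in 9 of the 10 genes, far below the rest for Nkx2-1 at 14.4 CPM. For Gad1 and Gad2 both cKO symbols lie below both WT symbols, and for Gad2 they are level.

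The 4 Dlx genes are homeobox genes that run in pairs facing each other on a chromosome. They are needed for GABA neurons to differentiate and migrate. All 4 were lowest in cKO 1, Dlx6 by the smallest margin. Dlx1 (ENSMUSG00000041911, chr2:71528113-71533981, plus strand) had 391 and 369 CPM in WT, 246 CPM in cKO 1 and 376 CPM in cKO 2. Its partner Dlx2 (ENSMUSG00000023391, chr2:71543408-71546754, minus strand) had 181 and 174 CPM in WT, 115 CPM in cKO 1 and 198 CPM in cKO 2. In cKO 1 they lay 1.50-fold and 1.51-fold below the next library, and in cKO 2 Dlx1 was between the WT values and Dlx2 above both. Dlx5 (ENSMUSG00000029755, chr6:6877805-6882085, minus strand) had 63.0 and 60.4 CPM in WT, 45.8 CPM in cKO 1 and 74.7 CPM in cKO 2. Dlx6 (ENSMUSG00000029754, chr6:6863334-6868568, plus strand) had 18.7 and 14.5 CPM in WT, 12.9 CPM in cKO 1 and 18.7 CPM in cKO 2. For this second pair cKO 1 was 1.32-fold and 1.12-fold below the next library. For Dlx6 that gap was smaller than the distance between the WT libraries, and cKO 2 was level with WT 1. The log2 fold changes of the 4 genes, between -0.28 (SE 0.21) for Dlx1 and -0.02 (SE 0.23) for Dlx5, were averages over a cKO library below the WT values and another within or above them.

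Gsx2 (ENSMUSG00000035946, chr5:75075601-75077893, plus strand), a homeobox gene of ventricular progenitors that directs lateral identity, had 13.7 and 13.8 CPM in WT, 9.60 CPM in cKO 1 and 16.8 CPM in cKO 2. The WT libraries were close together and the cKO libraries stood on either side of them, so the log2 fold change of -0.05 (SE 0.29) came from opposite departures. Part of these was shared by genes of about its exon length. On the log2 scale, relative to each gene's mean over the libraries, their medians were -0.07 in cKO 1 and 0.12 in cKO 2. With the median of its length class taken off, Gsx2 stood at 0.04 and 0.10 in WT, -0.37 in cKO 1 and 0.22 in cKO 2. In cKO 1 the gene was 1.43-fold below the next library, a factor close to that of Dlx1 and Dlx2 and smaller than that of any of the 3 medial genes.

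Gad1 and Gad2, which encode the large and the small form of glutamate decarboxylase, differed from the other 8 genes. Gad1 (ENSMUSG00000070880, chr2:70553072-70602014, plus strand) had 80.7 and 72.9 CPM in WT and 57.7 and 54.2 CPM in cKO, means of 76.8 ± 5.45 and 56.0 ± 2.45 CPM (SD, n = 2 each). Gad2 (ENSMUSG00000026787, chr2:22622205-22693874, plus strand) had 117 and 115 CPM in WT and 97.9 and 98.0 CPM in cKO. For these 2 genes neither cKO library reached the level of either WT library, with a log2 fold change of -0.45 (SE 0.15) for Gad1 and -0.24 (SE 0.14) for Gad2, while the groups overlapped for the other 8. A cKO pair wholly below the WT pair was found in 11.2% of all genes tested, and one wholly above it in 10.4% of genes and in 0 of the 10. With both sides counted, 2 of the 10 genes is close to the share of all genes, so the lack of overlap is no trait of the set. The lower level of Gad1 and Gad2 in cKO did not rest on cKO 1, since without it the log2 fold changes were -0.48 and -0.22. Long transcripts as a class were lower in cKO 2, by a median of -0.10 on the log2 scale among genes of about the exon length of Gad1. With the median of each length class taken off, the log2 differences between the groups were -0.41 for Gad1 and -0.22 for Gad2, and the groups still did not overlap.

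Put together, 9 of the 10 genes had their lowest CPM in cKO 1, which was the lowest library for 26.9% of all genes tested, and Gad1 had its lowest in cKO 2. The highest value fell in WT 1 for 5 genes (27.3% of all genes tested), in cKO 2 for 4 (31.5%) and in WT 2 for 1. Among these are near ties: Gad2 had 97.93 CPM in cKO 1 and 98.00 CPM in cKO 2, and Dlx6 had 18.74 CPM in cKO 2 and 18.71 CPM in WT 1. The log2 fold change was below 0 for all 10, against 52.1% of all genes, with a median of -0.26 against -0.01. The study called genes whose fold change was 2 or more with an unadjusted p no higher than 0.05. None of the 10 met these thresholds, which 0.811% of genes met in edgeR's quasi-likelihood test (131 genes), 0.669% as lower and 0.142% as higher in cKO. No gene of the table had an adjusted p under 0.05 in that test or in DESeq2, and 199 had an unadjusted p under 0.05. Without cKO 1 the median log2 fold change of the 10 genes was 0.03, and without cKO 2 it was -0.56.

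To place these gaps among other genes, cKO 1 was set against the lowest of the other 3 libraries for 14635 tested genes with a mean of at least 1 CPM, on the log2(CPM + 0.5) scale. Nkx2-1 took rank 2 from the bottom with a gap of -1.92, and Lhx8 rank 12 with -0.95. Lhx6, Dlx2 and Dlx1 took ranks 80, 101 and 109, Gsx2 rank 169 and Dlx5 rank 301, with gaps from -0.63 to -0.39. Dlx6 was at rank 1335, Gad2 at 3923 and Gad1 at 6020. Only 8 genes reached a gap of 2-fold. Besides Nkx2-1 these included Shh, the signal that induces Nkx2-1, counted 51 and 34 times in WT, 7 times in cKO 1 and 27 times in cKO 2.

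**Figure D2:**
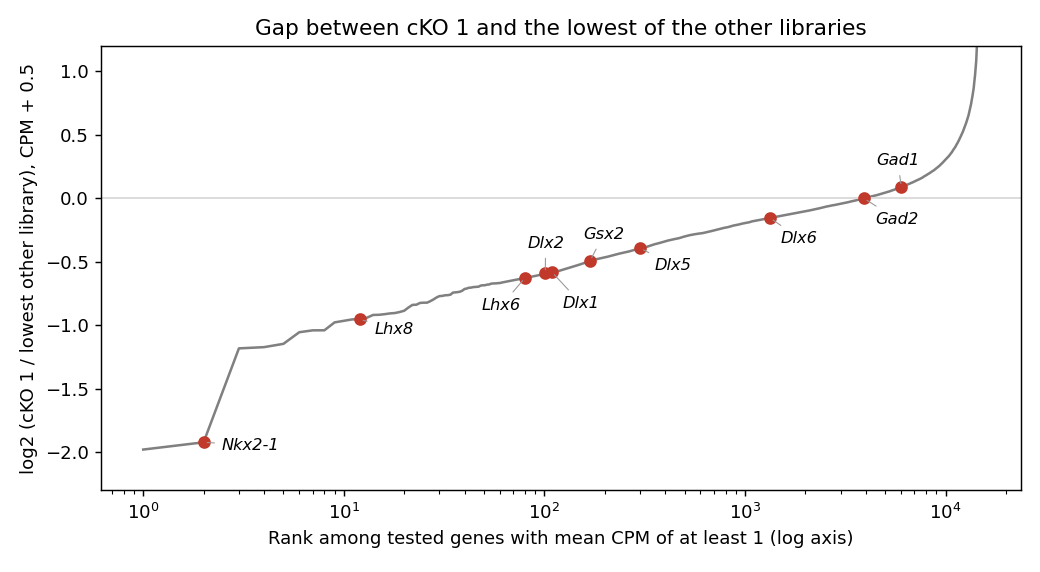
Gap between cKO 1 and the lowest of the other 3 libraries, as a log2 ratio of CPM + 0.5, against rank among 14635 genes on a log axis; the vertical axis is cut at 1.2, above which only genes higher in cKO 1 lie. The grey line is all genes and the red points are the 10 described, of which Nkx2-1 at rank 2 and Lhx8 at rank 12 lie at the lowest end and Gad1 and Gad2 near 0.

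Of the 8 genes with a gap of 2-fold or more, 2 were neighbours of medial genes, looked up after the ranking was seen. AC154734.1, a processed transcript at rank 1, begins 2530 bases beyond the end of Nkx2-1 on the same strand (chr12:56488321-56529427). It was counted 349 and 221 times in WT, 41 times in cKO 1 and 187 times in cKO 2. AI606473, a processed transcript at rank 3, faces away from Lhx8 on the other strand, with 161 bases between their starts (chr3:154330821-154334254). It was counted 145 and 134 times in WT, 53 times in cKO 1 and 139 times in cKO 2. For each of these transcripts cKO 1 was lowest by a wide margin, as for its neighbour. The antisense gene Gm26973, whose span covers the start of Nkx2-1 with no exon base in common, took rank 21 with counts of 48 and 43 in WT against 17 in cKO 1 and 38 in cKO 2. The other genes within 50000 bases of any of the 10 that had a mean of at least 1 CPM, leaving out the Dlx genes themselves, took ranks from 1604 (Dlx1as) to 11615 (Gm13340, beside Gad2). Among them Slc44a5, 34571 bases from Lhx8, had 24.6 and 30.1 CPM in WT and 27.5 and 24.7 CPM in cKO.

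Of 3 transcripts antisense to Dlx genes, Dlx6os1 and Dlx1as had both cKO libraries below both WT libraries, while the groups of the third, Dlx6os2, overlapped. A cKO pair wholly below the WT pair was found in 11.2% of all genes tested, so this order does not link them to any other gene. Dlx6os1, a long noncoding RNA that overlaps Dlx6 on the other strand with no exon base in common, had 91.9 and 80.8 CPM in WT and 61.6 and 63.2 CPM in cKO, a log2 fold change of -0.46 (SE 0.15). Dlx1as, which shares 335 exon bases with Dlx1, had 14.1 and 11.4 CPM in WT and 8.99 and 9.89 CPM in cKO. The groups of Dlx6 and Dlx1 themselves overlapped. Dlx6os2, which shares 104 exon bases with Dlx6, was counted only 5 and 17 times in WT and 17 and 12 times in cKO. Whether counting used the strand is not given, and reads of the shared 6.21% of Dlx1 exon bases cannot be assigned to either gene.

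Medial and lateral genes were then compared within each library. The mean log2(CPM + 0.5) of Nkx2-1, Lhx6 and Lhx8 less that of the lateral genes Gsx2, Ebf1, Isl1 and Zfp503 was 0.83 and 0.45 in the WT libraries, -0.51 in cKO 1 and 0.71 in cKO 2. Its sign depends on gene length and only the differences between libraries can be read. The group means were 0.64 ± 0.27 in WT and 0.10 ± 0.86 in cKO (SD, n = 2 each), and the gap between cKO 1 and WT 2, the lowest of the others, was -0.96, larger than the distance between the WT libraries. The medial mean was 4.30 in cKO 1 and 5.52 to 5.87 in the others, while the lateral mean was 4.81 in cKO 1 and 4.94 to 5.07 in the others. Against the 4 Dlx genes the medial genes gave -0.72, -0.93, -1.72 and -1.02 in WT 1, WT 2, cKO 1 and cKO 2. With Gsx2 as the only lateral gene the gap of cKO 1 to the next library was -0.58, and without Nkx2-1 it was -0.61.

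**Figure D3:**
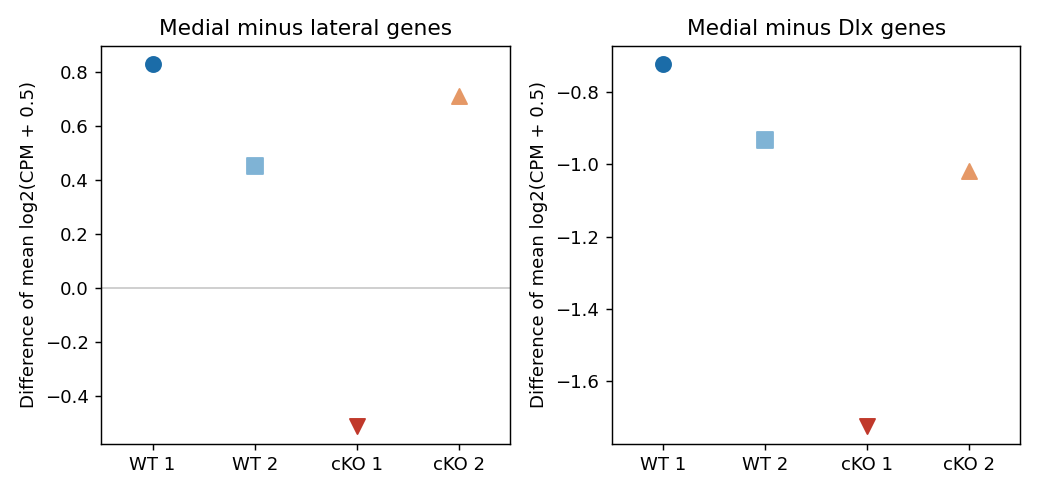
Mean log2(CPM + 0.5) of the 3 medial genes minus that of 4 lateral genes (left) or of 4 Dlx genes (right), 1 point per library; the vertical axes do not share a scale. In both panels cKO 1 lies apart at the bottom, at -0.51 and -1.72, and cKO 2 lies near the WT libraries.

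Shares of counts within pairs of genes, which depend on neither depth nor normalization, described the same libraries in another way. Nkx2-1 made up 46.5% of the counts of Nkx2-1 and Lhx6 in WT 1 (95% Wilson interval 44.7 to 48.2), 34.6% in WT 2 (33.0 to 36.4), 19.1% in cKO 1 (17.1 to 21.3) and 38.7% in cKO 2 (37.0 to 40.4). The WT libraries differed from each other by more than their intervals, which cover counting error only, and cKO 1 was below both. Lhx8 made up 21.1 and 12.9% of the counts of Lhx8 and Lhx6 in the WT libraries, against 11.4% in cKO 1 and 15.4% in cKO 2. Here the intervals of WT 2 (11.6 to 14.4) and cKO 1 (9.77 to 13.3) overlapped. The proportions of the Dlx pairs varied less. Dlx1 made up 68.0 to 68.3% of the counts of Dlx1 and Dlx2 in WT and cKO 1 and 65.5% (64.5 to 66.4) in cKO 2, and Dlx5 made up 77.1 to 80.7% of the counts of Dlx5 and Dlx6. Gad1 made up 40.7 and 38.9% of the Gad counts in WT and 37.1 and 35.6% in cKO.

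**Figure D4:**
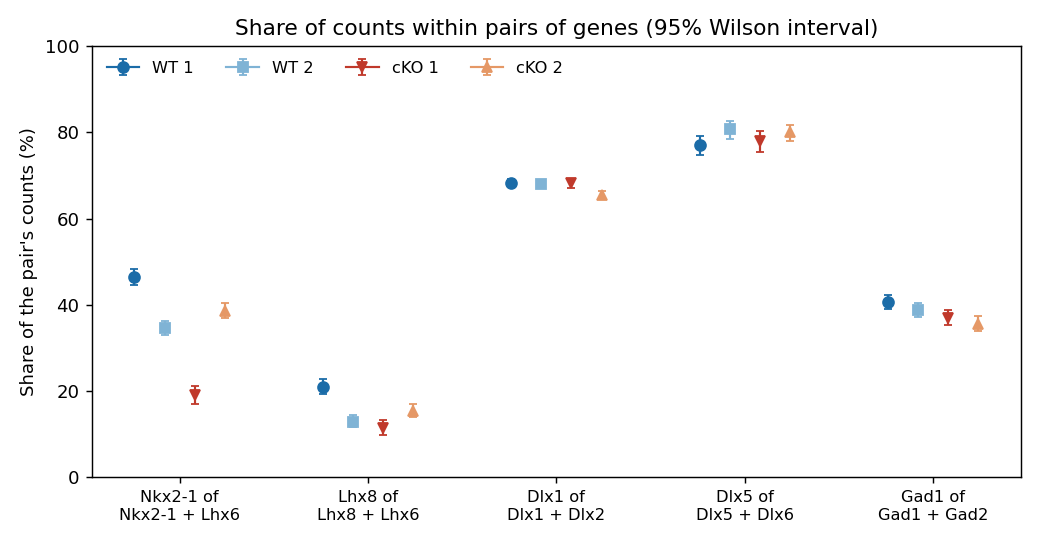
Share of the first gene in the summed counts of a pair of genes, in percent, for each library, with 95% Wilson intervals that cover counting error only. The share of Nkx2-1 beside Lhx6 ranges from 19.1% in cKO 1 to 46.5% in WT 1, and the shares within the Dlx and Gad pairs differ far less.

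Levels can be compared between genes only per length, here as CPM per kilobase of exon. Dlx1 and Dlx2 led with means of 64.0 and 58.5 over the 4 libraries and overlapping ranges. Dlx5 followed at 26.9, with a range below theirs that overlapped that of Nkx2-1, and Nkx2-1, Lhx6 and Gad2 at 19.0, 18.9 and 18.2 did not differ beyond their spread. Gad1 at 8.69, Gsx2 at 8.09, Dlx6 at 6.83 and Lhx8 at 6.64 formed the lowest set, also with overlapping ranges. In cKO 1 Nkx2-1 dropped out of the middle of this order, at 5.05 CPM per kilobase beside 12.7 for Lhx6 and 16.7 for Gad2.

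Other genes of the eminences, in lists chosen with earlier results of these data known, gave no call at the thresholds of the study. Of 12 other medial genes 6 were lowest in cKO 1, with a median log2 fold change of -0.24. Sst, the neuropeptide of a class of medial interneurons, had 82.2, 82.1, 60.5 and 99.7 CPM in WT 1, WT 2, cKO 1 and cKO 2, the order of Dlx2 and Dlx5. Sox6, which acts after Lhx6 in the same neurons and is also active in cortical progenitors, was highest in cKO 1 at 147 CPM, against 108 to 129 CPM in the others. The medial list was thus not uniformly lower in cKO 1, and its summed level was 484 CPM in cKO 1 and 481 CPM in cKO 2, with 579 and 519 CPM in WT. The WT libraries differed most in Zic1, with 144 CPM in WT 1 and 76.6 CPM in WT 2, beside 79.6 CPM in cKO 1 and 82.5 CPM in cKO 2.

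Of 14 other lateral genes 3 were lowest in cKO 1 and 10 in cKO 2, which was the lowest library for 35.1% of all genes tested. Their summed level was 838 and 884 CPM in WT, 849 CPM in cKO 1 and 753 CPM in cKO 2, and the median log2 fold change was -0.18. Meis2 held the largest part of that sum, 451 and 476 CPM in WT, 484 CPM in cKO 1 and 433 CPM in cKO 2. Isl1, of striatal projection neurons, had 40.6 and 41.6 CPM in WT and 34.9 and 30.4 CPM in cKO. Ebf1, which acts in the same lineage, had 47.2 and 47.6 CPM in WT and 45.5 and 35.0 CPM in cKO. Both were lowest in cKO 2, where long transcripts as a class were also lower, and the part of transcript length in these values was not tested. Six3, Tac1 and Zfp503 were the 3 lowest in cKO 1, which was the lowest library for 26.9% of all genes tested. Tac1 was near a tie, with 12.17 CPM in cKO 1 and 12.44 CPM in cKO 2.

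Of 12 genes shared by ventral progenitors and interneurons 10 were lowest in cKO 1, with summed levels of 758 and 743 CPM in WT, 625 CPM in cKO 1 and 717 CPM in cKO 2. Of 5 caudal eminence genes 4 were lowest in cKO 1, and the median log2 fold change of the 5 was -0.29. Nr2f2, a nuclear receptor of caudal progenitors, had 126 and 97.8 CPM in WT and 64.3 and 79.4 CPM in cKO, a log2 fold change of -0.63 (SE 0.18). Nr2f1, the most abundant gene of the list, had 202 and 226 CPM in WT, 180 CPM in cKO 1 and 250 CPM in cKO 2. Its log2 fold change was 0.01 (SE 0.19).

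Of the 7 other genes of GABA handling 4 were lowest in cKO 1, and their median log2 fold change was -0.10. Slc32a1, which loads GABA into vesicles, had 34.4 and 33.4 CPM in WT, 24.4 CPM in cKO 1 and 44.3 CPM in cKO 2, the order of Dlx2 and Dlx5. Abat, which breaks GABA down, had 70.5 and 76.2 CPM in WT and 60.7 and 66.2 CPM in cKO. For Abat the groups did not overlap, as for Gad1 and Gad2.

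Markers of neighbouring tissue also differed in cKO 1. Of 12 dorsal telencephalon genes 8 were highest in cKO 1, which was the highest library for 24.5% of all genes tested, and their summed level was 3350.1 CPM there, against 2785 and 3035 CPM in WT and 2825 CPM in cKO 2. Lhx2, a selector gene of the cortex, had 436 and 451 CPM in WT, 525 CPM in cKO 1 and 478 CPM in cKO 2. Nkx2-1 is also expressed in the hypothalamus, and the 5 tested genes of hypothalamus and prethalamus that no other list holds were all lowest in cKO 1. They summed to 21.3 CPM there, against 36.7 and 32.5 CPM in WT and 34.4 CPM in cKO 2. Among them Otp, of neuroendocrine hypothalamic neurons, was counted 104 and 89 times in WT, 48 times in cKO 1 and 102 times in cKO 2, and Pomc, a hypothalamic neuropeptide precursor, 28, 24, 13 and 43 times in the same order. Of the 6 genes of this list that did not pass the filter, Sim1 had counts of 28 and 7 in WT against 10 and 1 in cKO, and Hmx3 11 and 0 against 1 and 0. The other 4, Nkx2-4, Rax, Six6 and Nkx2-2, had 0 to 5 counts in every library. Lists of other tissues, counted in the same way, also had genes lowest in cKO 1. These were 3 of 5 for thalamus and midbrain, 3 of 3 for microglia and 2 of 3 each for blood and endothelium. For choroid plexus and cortical hem there were 0 of 4, and for meninges and mesenchyme 1 of 5. The part of hypothalamic tissue in the values of Nkx2-1 was not tested. In bulk RNA, fewer ventral cells and less ventral RNA per cell cannot be told apart, and the part of the dissection in the low values of cKO 1 was not tested.

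The genes outside the 10 whose centred log2(CPM + 0.5) profile over the 4 libraries lay nearest to the mean of the medial genes, among 14625 genes, were Skor1 at a Euclidean distance of 0.10, AI606473 at 0.14, Cdc42ep1 at 0.16, Id1 at 0.31 and Pxdc1 at 0.35. Nkx2-1 itself lay at 0.70 from that mean and Lhx8 at 0.25. Nearest to the mean of the Dlx genes were Dusp26 at 0.04, Zcchc12 and Lmna at 0.05, and Gm36266 and Nnat at 0.07. Id1, a target of BMP signalling, had 17.1 and 12.3 CPM in WT, 6.80 CPM in cKO 1 and 14.6 CPM in cKO 2, and Nnat, an abundant imprinted gene of young neurons, had 3036 and 2808 CPM in WT, 2159.6 CPM in cKO 1 and 3393 CPM in cKO 2. With 4 libraries many genes share any given order, and likeness of profile is no more than that.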

How the data were processed

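Gene counts of 2 WT and 2 cKO libraries of E13 mouse telencephalon were analysed. The authors deposited raw counts of reads per gene in a table of all 4 libraries, of whose 27304 rows 11 blank ones (0.0403%) were left out, and in a table of cKO 1 and WT 1 with identical counts for 21342 shared genes. The submitters' processing notes name Bowtie2 2.2.3, TopHat2 2.0.12, HTSeq 0.6.0 and mm9. The deposited positions match GENCODE M21 (GRCm38) for 97.3% of 27232 genes found there and were read as GRCm38. The strand of counting is not given in the sources used here. Columns of the authors' own comparison (fold changes, p-values, adjusted p-values) and their normalized values were not used.

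CPM was the count per 1000000 counts of a library. Counts were fitted with edgeR 4.0.16 in R 4.3.3 (TMM, filterByExpr, quasi-likelihood test, Benjamini-Hochberg adjustment), with DESeq2 1.42.0 as an alternative, and the procedure was tested on simulated data. The SE is the absolute log2 fold change divided by the square root of the F statistic. With 2 libraries against 2 an exact permutation test cannot go below p = 0.333. Log2 values of CPM used a pseudocount of 0.5. Wilson intervals (scipy 1.17.1) cover counting error only, since reads carry no molecular identifiers.

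The genes and lists were chosen with earlier results of these data known. Besides the 10 genes and Tmem173, the rule named in each list the 4 genes with the highest mean CPM and those past the thresholds of the study, and the 5 genes nearest in profile to the medial and to the Dlx genes. Of these, the text gives those that bear on the 10 genes. Some genes of the lists are not reported here. Shh, Slc32a1, Isl1, Six3, Tac1, Zfp503, Pomc, the hypothalamic genes below the filter, Dlx1as, Dlx6os2, Gm26973 and the neighbours of the 10 genes were singled out after their values were seen, and the correction for exon length (20 classes) was added then.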

Additional observations from a re-analysis of the deposited data

How the results depend on the processing

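The count of genes past the thresholds of the study, 131, was 405 with no filter beyond 1 count, 65 with DESeq2, 127 with DESeq2's size factors in edgeR and 104 to 531 with 1 library left out (476 without WT 2, 531 without cKO 1). The count at an adjusted p under 0.05, 0, was 65 with no filter and 0 to 116 with 1 library left out (7 without WT 1, 105 without cKO 1, 116 without WT 2). A lone library is assumed there to vary like those of the other group. With a replicate block the counts were 208 and 5, and the median log2 fold change of the 10 genes was -0.27. The numbers pair nothing that the labels name, and with 2 pairs the correlation of the deviations across genes was 0.11. The causes of these shifts were not tested. The median of the 10 genes, -0.26, ranged from -0.56 without cKO 2 to 0.03 without cKO 1. The gap of cKO 1 in the medial minus lateral difference, -0.96, was -0.58 with Gsx2 alone and -0.61 without Nkx2-1, and remained at -0.96 to -1.18 in the other settings. The gap against the Dlx genes was -0.70 to -0.72. The groups of 2 genes, Gad1 and Gad2, did not overlap in any setting run, which were TMM-scaled values, raw counts and values corrected for exon length. The TMM factors were 0.989 to 1.012 and the library totals were close, so TMM scaling and raw counts could hardly change the order. With 2 libraries in a group, a low value in 1 of them cannot be told apart from an effect of the genotype that varies between embryos.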
